A study of Mus musculus with 27 samples.

Results

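The genes described here are neighbours on mouse chromosome 14, on the stretch that runs from Micu2 to Ipo5. They are 44 listed genes, and the list was chosen by measured values, namely the levels on arrays labelled microglia and ESdM against those on arrays labelled MF and BM-DC. Of the 44 genes, 41 passed the filter for detected probes and were tested among 12814 genes in all. Spata13 had no probe named for it in the annotation. Tbc1d4, a regulator of glucose transporter traffic, and Spry2, an inhibitor of receptor tyrosine kinase signalling, were detected on 0 of the 27 arrays. In the RefSeq gene order the stretch held 246 protein-coding genes, of which 215 had a named probe. With genes of other kinds, 168 genes of the stretch were tested, the 41 listed and 127 others.

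The series holds 27 Illumina bead arrays in 1 colour, each with RNA of cells from C57BL/6 mice. The groups were cells labelled microglia from brain at day 3 (3 arrays), the embryonic stem cell derived lines ESdM 20 and ESdM 22 after more than 51 days of culture (3 arrays each), MF (4 arrays) and BM-DC (3 arrays), both from bone marrow at day 7, astrocytes from brain at day 3 (3 arrays), neurons from brain at embryonic day 15 to 16 (3 arrays) and naive CD8 T cells from spleen at 6 to 8 weeks (5 arrays). MF and BM-DC are not spelled out in the labels and are read here as bone marrow macrophages and dendritic cells. Each ESdM line is a single line, and its label gives the cell type as ES cells. ESdM without a number means both lines together, with 6 arrays.

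Genes that lie side by side on a chromosome are as a rule transcribed from promoters of their own, and most neighbours in mammals share no function. Some pairs start back to back from the same stretch of DNA, and whole stretches can share an open or closed chromatin state or a copy number, so neighbours can rise or fall together. The stretch holds genes with well known roles: Rb1 encodes the retinoblastoma protein, which restrains entry into the cell cycle, Lcp1 encodes L-plastin, the actin-bundling protein of white blood cells, and Itm2b encodes a membrane protein that binds the amyloid precursor protein.

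Levels are log2 normalized intensities, on which a gene that is not detected lies near 4.3, and a level is never compared between genes because probes differ. The median raw intensity was 27.6 to 28.6 on BM-DC arrays and 80.1 to 113 on the others, 14247 to 17533 probes were detected per array, and 31 to 38 of the 41 genes were detected on each array. All microglia, ESdM 20 and ESdM 22 arrays lay together on 2 chips that held nothing else, astrocytes and neurons shared 1 chip, and MF, BM-DC and CD8 T cells lay on chips of their own, so that against these groups chip and cell type cannot be told apart. Of 6 tested microglial markers, P2ry12, Tmem119 and Cx3cr1 were detected on 0 of the 3 arrays labelled microglia, while Sall1, Csf1r and Aif1 were detected on all 3, at 5.46, 9.04 and 7.04. The macrophage markers Adgre1 and Lyz2 averaged 10.66 and 12.09 there. Arrays labelled astrocyte carried Cx3cr1 at 9.44 and Lyz2 at 12.1 beside Gfap at 11.52. All 6 tested microglial markers were detected on all 3 of them, with a summed level of 40.64 to 45.3, against 34.01 to 35.21 on arrays labelled microglia. They also carried the neuron markers Map2 at 10.02 and Stmn2 at 10.58, but none detected Rbfox3. Neuron arrays carried the astrocyte marker Slc1a3 at 10.95, with Gfap at 5.86 and Aqp4 at 5.51. All 4 tested macrophage markers were detected on every MF and BM-DC array, at summed levels of 43.66 to 44.78 and 42.98 to 43.62. Of 6 dendritic cell markers, 4 were detected on all BM-DC arrays and 2, Flt3 and Zbtb46, on none. One of them, H2-Aa, was 11.8 on BM-DC and 10.38 on MF arrays. CD8 T cell arrays carried H2-Aa at 8.27 beside Cd3e at 12.6. The part that such admixed or missing cell types had in the results was not tested, and in bulk samples fewer cells of a type and less RNA per cell cannot be told apart.

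On microglia and ESdM arrays most of the listed genes were lower than on MF and BM-DC arrays, and the shift was uneven along the stretch. Since these values chose the genes, they are given as a description, without a test. The median difference over the 41 genes was -0.73 on the log2 scale, beside 0.01 over all genes tested, and 34 of the 41 lay below 0. Taking microglia and ESdM each against MF and BM-DC gives 4 differences per gene. In all 4 of them 22 genes were lower, against 28.7% of all genes, 4 were higher, against 34% of all genes, and 15 had mixed signs. At least 2-fold lower in all 4 were 13 of the 41 genes, against 5.22% of all genes, and at least 2-fold higher was 1, against 6.76%. The 9 microglia and ESdM arrays lay below all 7 MF and BM-DC arrays for 19 of the 41 genes, where the share of all genes was 12.7%, and above them for 2, where it was 16.6%. The 4 differences share their arrays, so they do not count as separate evidence.

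The size of that median depended on the processing. It was -0.38 without background correction, -0.42 on the authors' deposited processed values and -0.52 when all probes of a gene were averaged. With median scaling in place of quantile normalization it was -0.77, while the median of all genes moved to 0.2.

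**Figure D1:**
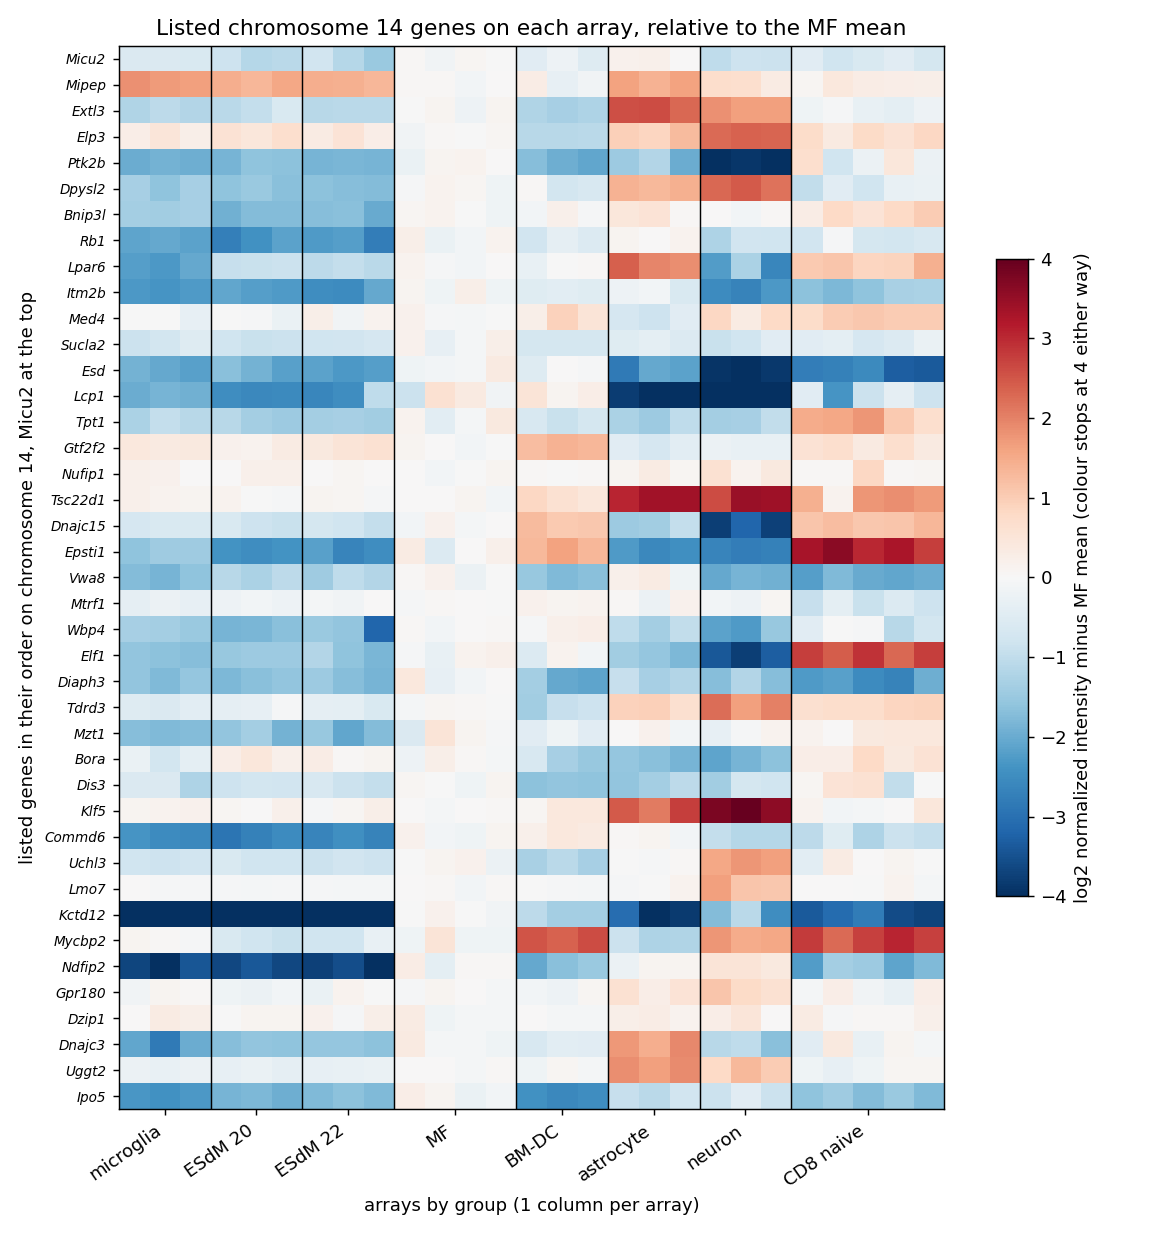
Each row is 1 of the 41 tested genes in chromosome order and each column 1 array, and the colour gives the log2 normalized intensity minus the mean of the 4 MF arrays, blue for lower and red for higher. Kctd12, Ndfip2 and Commd6 are blue on all 9 microglia and ESdM arrays, Mipep is red there, and the pattern of the other groups differs from row to row.

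Kctd12, which encodes an auxiliary subunit of GABA-B receptors, had the largest difference. It was 4.62, 4.57 and 4.62 on microglia arrays and 4.89 to 5.06 on ESdM arrays (median 4.97), against 10, 10.16, 10 and 9.85 on MF arrays and 8.95, 8.64 and 8.63 on BM-DC arrays. The groups were several log2 units apart, and only 1 of the 3 microglia arrays detected the gene. The fitted difference was -4.53, or 23-fold lower, but with microglia arrays at the floor it has no exact size. It was -2.72 without background correction and -2.9 on the deposited processed values.

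Ndfip2 encodes an adaptor that brings Nedd4-family ubiquitin ligases to membranes. Its levels were 5.09, 4.39 and 5.33 on microglia arrays and 4.78 to 5.37 (median 5.1) on ESdM arrays, against 9.06, 8.35, 8.8 and 8.8 on MF arrays and 6.72, 7.09 and 7.28 on BM-DC arrays. All 9 arrays lay below all 7, by 7.19-fold on the fitted means, and 8 of the 9 detected the gene. The log2 difference of -2.85 shrank to -1.49 without background correction and to -1.62 on the deposited processed values.

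Commd6 encodes a member of the COMMD family, whose proteins work together in endosomal sorting. It measured 6.96, 6.79 and 6.74 on microglia arrays and 6.4 to 6.87 (median 6.66) on ESdM arrays, against 9.49, 9.19, 9.13 and 9.42 on MF arrays and 9.52, 9.74 and 9.67 on BM-DC arrays. The arrays within each side were close together and the fitted difference was 6.76-fold.

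Epsti1, an interferon-induced gene, was 5.33, 5.51 and 5.52 on microglia arrays and 4.3 to 4.77 on ESdM arrays, against 7.28, 6.4, 6.95 and 7.16 on MF arrays and 8.23, 8.56 and 8.28 on BM-DC arrays. All 3 microglia arrays and 1 of the 6 ESdM arrays detected it. The fitted difference was -2.82, but -1.36 without background correction and -1.49 on the deposited processed values. Here the arrays labelled microglia stood above the ESdM arrays as well as below the others.

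Of the genes of the cell cycle and the cytoskeleton, Rb1 was 7.94, 8.01 and 7.9 on microglia arrays and 7.3 to 7.92 on ESdM arrays, against 10.3, 9.79, 9.94 and 10.18 on MF arrays and 9.28, 9.69 and 9.52 on BM-DC arrays, 4.09-fold lower. Lcp1 was 8.34, 8.48 and 8.41 on microglia arrays and 7.73 to 9.32 on ESdM arrays, against 9.48, 10.96, 10.71 and 10.21 on MF arrays and 10.87, 10.44 and 10.59 on BM-DC arrays. The highest ESdM array and the lowest MF array for Lcp1 came within 0.2 of each other, and the fitted difference was 4.97-fold. Mzt1, which recruits gamma-tubulin to the spindle poles, averaged 6.17 ± 0.205 on the 9 arrays and 7.72 ± 0.384 on the 7 (SD).

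Among membrane and organelle genes, Itm2b averaged 11.79 ± 0.17 on the 9 microglia and ESdM arrays and 13.87 ± 0.29 on the 7 MF and BM-DC arrays, 4.14-fold lower on the fitted means. Bnip3l, the mitophagy receptor Nix, averaged 8.62 ± 0.24 and 10.28 ± 0.13 on the same arrays (SD), 3.16-fold lower. Esd, which encodes S-formylglutathione hydrolase, averaged 9.42 ± 0.19 and 11.40 ± 0.26, 3.91-fold lower. Dnajc3, a co-chaperone of the endoplasmic reticulum, was 2.99-fold lower. For each of these genes all 9 arrays lay below all 7.

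Both genes of the pair Elf1 and Wbp4, which start close together, were lower too. Elf1, an ETS-family transcription factor of lymphocytes, averaged 6.84 ± 0.19 on the 9 arrays and 8.31 ± 0.27 on the 7 (SD), 2.75-fold lower. Wbp4, a spliceosomal protein, averaged 6.76 ± 0.56 on the 9 arrays and 8.58 ± 0.14 on the 7, 3.54-fold lower, and its spread on the 9 arrays came mostly from 1 ESdM 22 array at 5.35. These genes complete the 13 that were at least 2-fold lower in all 4 differences. That count holds for the background-corrected values and was not worked out for other processing. Without background correction the difference was -0.9 for Mzt1, -0.85 for Dnajc3 and -1 for Elf1. On the deposited processed values it was -0.97, -0.93 and -1.06. Rb1 kept -1.68 and -1.73, and Wbp4 -1.25 and -1.32, under the same 2 settings.

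**Figure D2:**
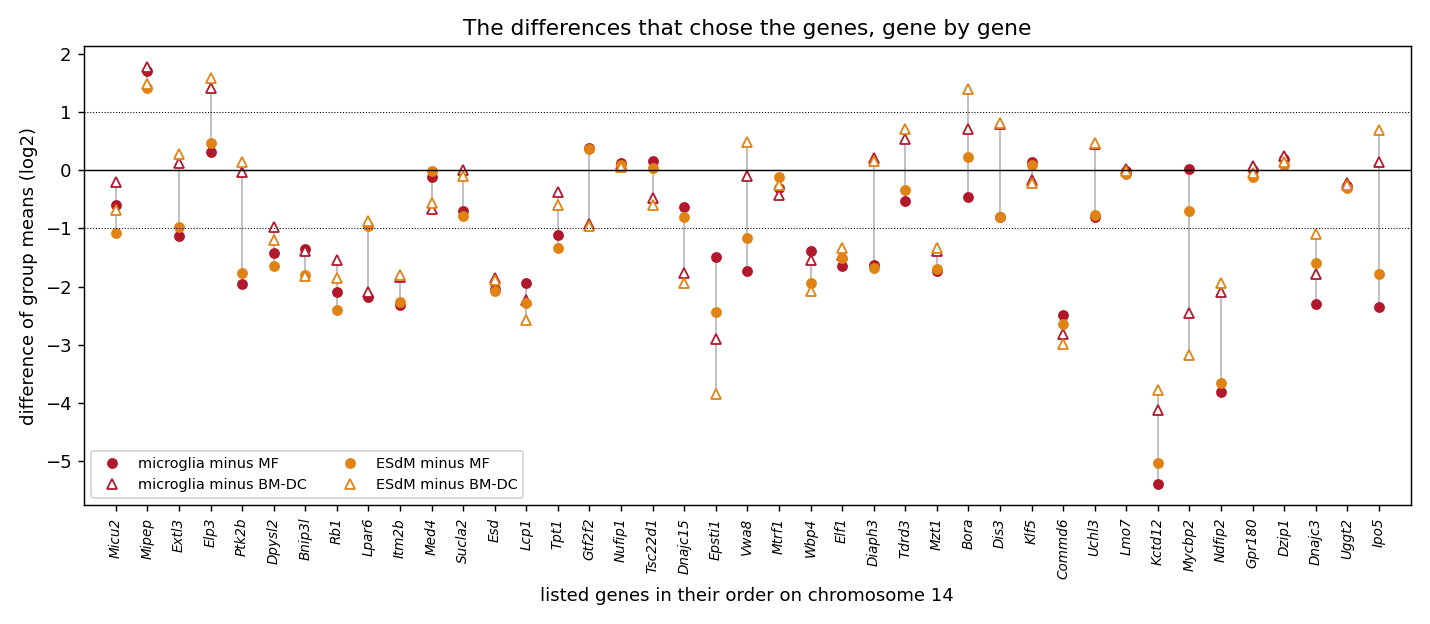
For each tested gene in chromosome order, the vertical axis shows the 4 differences of group means on the log2 scale, red for microglia and orange for ESdM, filled circles against MF and open triangles against BM-DC, with dotted lines at 2-fold. Kctd12, Commd6, Esd, Itm2b and Rb1 lie below the lower dotted line in all 4, Mipep lies above the upper one in all 4, and for Ptk2b, Diaph3, Ipo5 and Mycbp2 the circles and triangles lie far apart.

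Of the 13, Dnajc3 came closest to the limit, with a weakest difference of -1.1, and just outside the 2-fold limit stood Dpysl2 at -0.98 and Lpar6 at -0.87. Dpysl2, a microtubule-assembly protein of growing axons, averaged 9.45 on the 9 arrays and 10.79 as the mean of both groups on the other side, 2.54-fold lower. Lpar6, a lysophosphatidic acid receptor whose gene lies within Rb1, was 2.5-fold lower, and Dnajc15, a mitochondrial J protein, was 2.48-fold lower. The remaining genes without overlap that were lower were Tpt1, Micu2 and Uggt2. Tpt1, which encodes the translationally controlled tumour protein and has near-identical copies elsewhere in the genome, was detected on 2 of the 9 arrays and on all 7 others, at 4.5 and 5.38. Micu2, a gatekeeper of the mitochondrial calcium uniporter, was 1.64-fold lower. Uggt2, a folding sensor for glycoproteins, was near the floor on both sides (4.24 and 4.51), and its difference of -0.27 became 0.01 under median scaling.

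Mipep, the mitochondrial intermediate peptidase, went the other way. It was 9.82, 9.69 and 9.64 on microglia arrays and 9.33 to 9.56 (median 9.44) on ESdM arrays, against 8.05, 8.04, 7.89 and 8.03 on MF arrays and 8.29, 7.68 and 7.85 on BM-DC arrays. All 9 arrays lay above all 7, and the fitted difference was 2.93-fold. Elp3, the catalytic subunit of the Elongator complex that modifies transfer RNAs, was 1.96-fold higher, also without overlap. Dzip1, a cilium gene, and Nufip1, which acts in snoRNP assembly, were higher in all 4 differences by less than 0.3, and both were close to the floor.

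Among the 15 genes of mixed sign were several for which MF and BM-DC stood far apart. Ptk2b, the calcium-activated kinase Pyk2, averaged 6.51 ± 0.04 on microglia arrays (n = 3) and 6.69 ± 0.12 on ESdM arrays (n = 6), against 8.46 ± 0.19 on MF arrays (n = 4) and 6.54 ± 0.18 on BM-DC arrays (n = 3; SD). Ipo5, the nuclear import receptor importin 5, averaged 7.88 ± 0.07 on microglia and 8.43 ± 0.11 on ESdM arrays, against 10.23 ± 0.24 on MF and 7.73 ± 0.07 on BM-DC arrays. Both genes were thus low against MF and level with or above BM-DC. Mycbp2, a ubiquitin ligase of axon growth, had the opposite order, at 6.82 ± 0.08 on microglia and 6.09 ± 0.21 on ESdM arrays, against 6.79 ± 0.34 on MF and 9.28 ± 0.12 on BM-DC arrays. Extl3, Vwa8, Diaph3, Uchl3, Dis3 and Tdrd3 were lower than MF and, in at least 1 of both groups, higher than BM-DC.

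The smallest differences were those of Dis3, the catalytic ribonuclease of the RNA exosome, with 0, Lmo7 with -0.03, Gpr180 with -0.04, Klf5 with -0.05 and Nufip1 with 0.09. None of these 16 arrays detected Lmo7 or Nufip1, and only 2 BM-DC arrays detected Klf5, a zinc-finger transcription factor, so no order can be read from them. Sucla2, a subunit of the succinate-CoA ligase of the citric acid cycle, was detected on 0 of 9 microglia and ESdM arrays, against 4 of 4 MF arrays and 0 of 3 BM-DC arrays. Med4 of the Mediator complex was 1.25-fold and Mtrf1, a mitochondrial release factor, 1.19-fold lower, with overlapping arrays. Gtf2f2, a subunit of the general factor TFIIF, was 0.39 higher on microglia than on MF arrays and 0.93 lower than on BM-DC arrays on the log2 scale. Tsc22d1 was at the floor on microglia, ESdM and MF arrays.

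**Figure D3:**
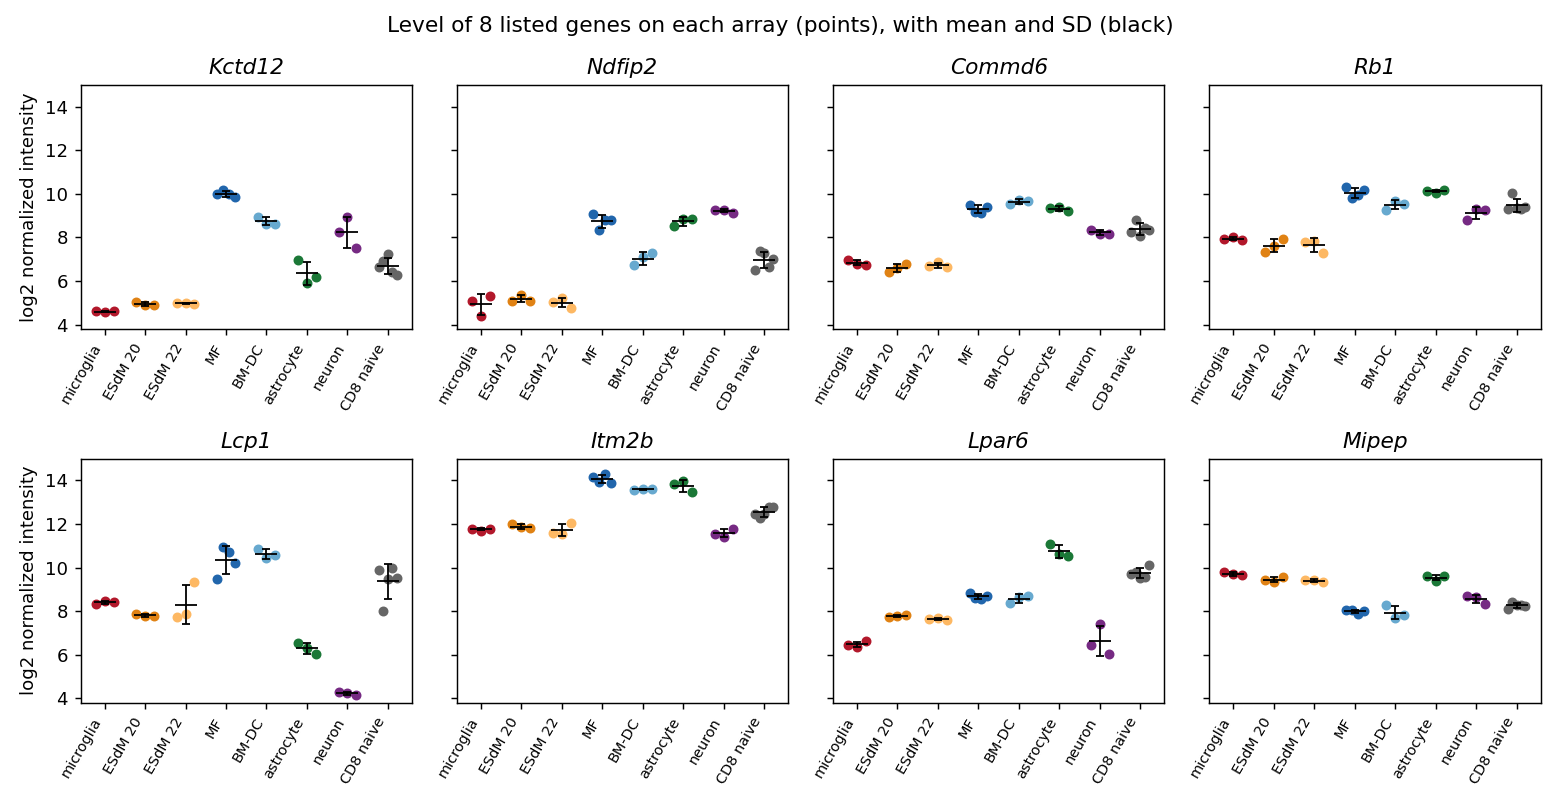
Each panel is 1 gene and each point 1 array, with the log2 normalized intensity on the vertical axis, the groups along the horizontal axis and the mean with its SD in black. Kctd12, Ndfip2, Commd6 and Rb1 have all 9 microglia and ESdM points below every other point, Lcp1 and Itm2b are as low or lower in neurons, Lpar6 is lower on microglia than on ESdM arrays, and Mipep is higher on microglia and ESdM than on MF and BM-DC arrays.

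Against all other 18 arrays together, astrocytes, neurons and CD8 T cells included, the 9 microglia and ESdM arrays were the lowest without overlap for 7 of the 41 genes, where the share of all genes was 2.41%, and the highest for 0, where it was 6.48%. The 7 genes were Dpysl2, Bnip3l, Rb1, Mzt1, Commd6, Kctd12 and Ndfip2. For Bnip3l the highest of the 9 arrays was 8.94 and the lowest of the 18 was 10.09. For Commd6 these values were 6.96 and 8.07, and for Ndfip2 5.37 and 6.52. The same 9 arrays had entered the choice of the genes, so this count is a description too.

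Promoter windows of 300 bases, 250 before and 50 after the annotated start, were given by RefSeq (GRCm38.p6) for 35 of the 44 genes, and 9 genes had none there (Bnip3l, Dpysl2, Ptk2b, Elp3, Extl3, Rb1, Bora, Klf5 and Mycbp2). The windows shown are those of Kctd12, Commd6 and Lcp1, the genes whose weakest of the 4 differences was furthest below 0, and those of neighbours with close starts. Elf1 and Wbp4 lie on opposite strands with starts 74 bases apart and run toward each other, so that their first bases overlap. The 25 bases that their windows share lie after both starts, and the parts before the starts do not overlap. Mzt1 lies head to head with Bora, with 241 bases between the starts. Each sequence runs 5′ to 3′ on the strand of its gene, and capitals mark every match, on either strand, to any of 5 motifs. The letters searched were CCGGAAG for ETS factors and CCAAT for the CCAAT box. They were GGGCGG for the GC box, TATAAA for the TATA box and TTTCGCGC for E2F.
Elf1 promoter, chr14:79480944-79481243, plus strand: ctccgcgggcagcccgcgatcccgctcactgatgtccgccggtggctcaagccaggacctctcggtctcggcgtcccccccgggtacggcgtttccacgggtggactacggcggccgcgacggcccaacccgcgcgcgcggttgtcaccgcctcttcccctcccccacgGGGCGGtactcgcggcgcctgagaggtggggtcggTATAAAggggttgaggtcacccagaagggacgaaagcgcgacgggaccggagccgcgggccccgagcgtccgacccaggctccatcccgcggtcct
Wbp4 promoter, chr14:79481219-79481518, minus strand: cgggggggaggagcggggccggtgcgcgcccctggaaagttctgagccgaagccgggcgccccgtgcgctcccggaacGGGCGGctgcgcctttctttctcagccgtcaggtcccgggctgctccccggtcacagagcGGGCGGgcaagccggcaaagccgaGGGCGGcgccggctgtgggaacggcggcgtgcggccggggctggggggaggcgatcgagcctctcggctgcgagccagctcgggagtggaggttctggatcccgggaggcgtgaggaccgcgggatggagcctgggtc
Mzt1 promoter, chr14:99046087-99046386, minus strand: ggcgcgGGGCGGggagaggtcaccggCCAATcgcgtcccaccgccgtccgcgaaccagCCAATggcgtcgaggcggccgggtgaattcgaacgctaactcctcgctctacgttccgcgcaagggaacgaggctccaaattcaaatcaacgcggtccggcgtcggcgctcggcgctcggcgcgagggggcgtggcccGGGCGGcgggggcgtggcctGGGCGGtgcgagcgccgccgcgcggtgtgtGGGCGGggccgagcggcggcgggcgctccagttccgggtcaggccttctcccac
Kctd12 promoter, chr14:102982588-102982887, minus strand: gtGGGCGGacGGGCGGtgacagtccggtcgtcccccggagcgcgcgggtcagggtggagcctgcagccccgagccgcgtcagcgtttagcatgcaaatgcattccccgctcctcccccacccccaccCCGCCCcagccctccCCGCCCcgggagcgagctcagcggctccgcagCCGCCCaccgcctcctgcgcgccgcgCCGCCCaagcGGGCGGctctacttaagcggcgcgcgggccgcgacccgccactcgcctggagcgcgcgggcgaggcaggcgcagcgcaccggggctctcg
Commd6 promoter, chr14:101640422-101640721, minus strand: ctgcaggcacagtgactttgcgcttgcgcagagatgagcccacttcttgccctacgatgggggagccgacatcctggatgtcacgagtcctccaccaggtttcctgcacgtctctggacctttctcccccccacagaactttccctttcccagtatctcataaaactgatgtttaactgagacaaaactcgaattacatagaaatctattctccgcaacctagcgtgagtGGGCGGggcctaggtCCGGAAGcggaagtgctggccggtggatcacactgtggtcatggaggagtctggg
Lcp1 promoter, chr14:75130873-75131172, plus strand: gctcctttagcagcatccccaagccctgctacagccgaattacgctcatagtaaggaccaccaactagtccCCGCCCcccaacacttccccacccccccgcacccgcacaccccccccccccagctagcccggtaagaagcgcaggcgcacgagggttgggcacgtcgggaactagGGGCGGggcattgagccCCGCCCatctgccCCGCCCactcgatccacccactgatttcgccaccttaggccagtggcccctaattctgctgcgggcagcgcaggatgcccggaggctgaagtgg

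All 6 windows hold a GC box, with 7 matches for Kctd12 and 1 each for Elf1 and Commd6. The Elf1 window also holds a TATA box, the Mzt1 window 2 CCAAT boxes and the Commd6 window the ETS letters. A match is only a match of letters. Over all 46 windows of the listed genes the GC box was found in 63%, against 35.7% of the 32851 windows of the table. The CCAAT box was in 34.8%, against 37.4%, the ETS letters in 8.7%, against 8.86%, and the TATA box in 10.9%, against 13.6%. The E2F letters were in 0% of the 46 windows, against 0.323%. The windows of the listed genes held a median of 21.5 CpG dinucleotides, against 7 over the table, whose windows were not matched for the kind of gene.

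The 2 pairs with close starts behaved differently. Elf1 and Wbp4 were both lower on microglia and ESdM than on MF and BM-DC arrays, by -1.46 and -1.82 on the log2 scale. In naive CD8 T cells they parted, since Elf1 averaged 11.01 ± 0.25 there and 8.39 ± 0.22 on MF arrays, while Wbp4 averaged 8.04 ± 0.47 and 8.51 ± 0.08 (SD, n = 5 and 4). Mzt1 was lower by -1.53 on microglia and ESdM arrays, while Bora, an activator of the mitotic kinases Aurora A and Plk1, had a difference of 0.59 with overlapping arrays.

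Along the chromosome the lower values were not evenly spread. The 127 other tested genes of the stretch had a median difference of -0.07, with 21 (16.5%) lower and 6 (4.72%) higher without overlap, where the shares of all genes were 12.7% and 16.6%. That median includes genes near the floor. For the 66 detected on every array of either side it was -0.41, against -1.31 for 33 such listed genes and 0.11 for all such genes. Of the 66, 22.7% were at least 2-fold lower and 9.09% higher, where the shares of all such genes were 16% and 19.3%. The 272 tested genes before Micu2 had a median of 0.04, with 28 (10.3%) lower and 42 (15.4%) higher, near the shares of all genes. Of the 13 tested genes after Ipo5, 11 lay below 0, with a median of -0.26 and 3 lower without overlap. In blocks drawn after the values were seen, 9 of the 17 listed genes from Rb1 to Wbp4 and Elf1 were at least 2-fold lower. Their median was -1.31, while the 19 other genes there had a median of -0.15, with 3 at least 2-fold lower. Over all genes tested 11.5% were at least 2-fold lower. From Micu2 to Bnip3l the 7 listed genes had a median of -0.71, with 2 at least 2-fold lower. The 45 others there had a median of -0.04, with 2 at least 2-fold lower. From Diaph3 to Ndfip2, where Kctd12 and Commd6 also lie, 5 of the 12 listed genes were at least 2-fold lower. Their median was -0.45, beside 0.02 for the 11 others, of which 2 were at least 2-fold lower. From Gpr180 to Ipo5 it was 1 of 5 listed genes and 2 of 6 others, with medians of -0.27 and -0.12. Since the listed genes were chosen on these values, lower medians than those of the others follow from the choice. The block medians include genes near the floor too.

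**Figure D4:**
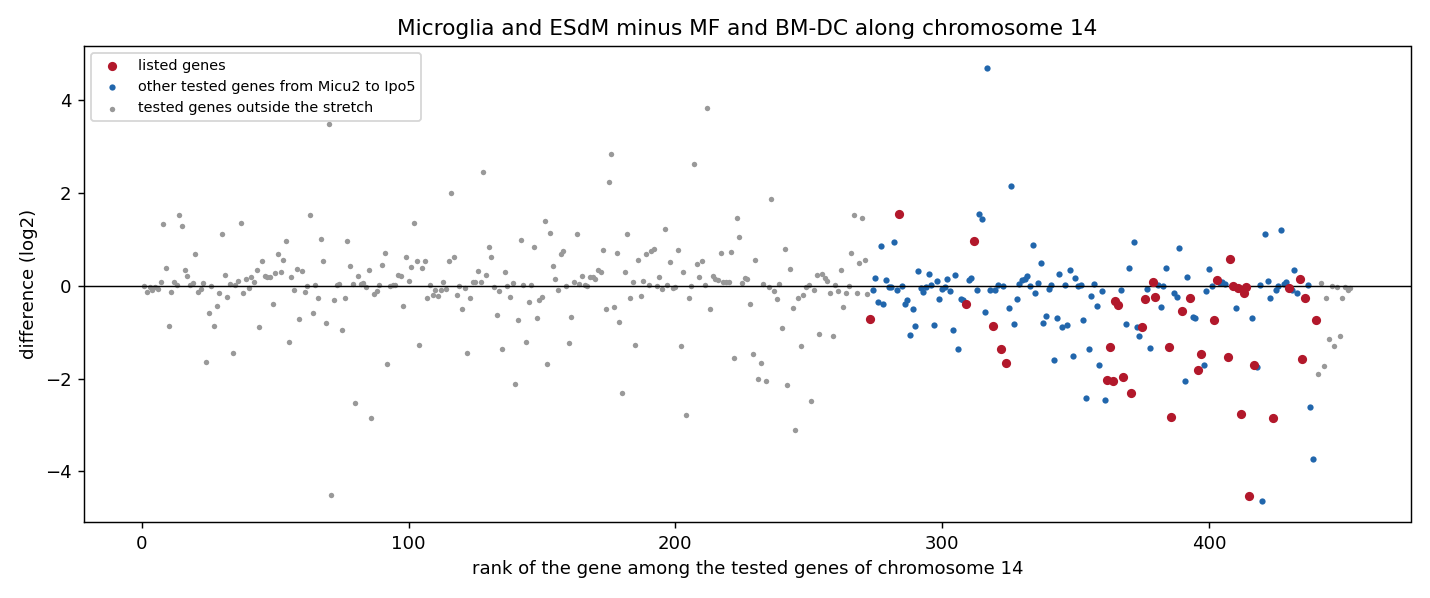
Each point is a tested gene of chromosome 14 at its rank along the chromosome, and the vertical axis gives the mean of microglia and both ESdM lines minus the mean of MF and BM-DC on the log2 scale. Listed genes (red) lie mostly below 0 with a median of -0.73. Other genes of the stretch (blue), those near the floor included, have a median of -0.07, and genes outside it (grey) scatter on both sides of 0.

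Some unlisted neighbours moved as far as the listed genes. Ednrb, the endothelin B receptor, averaged 4.29 on the 9 microglia and ESdM arrays, where it was detected on none, and 8.91 as the mean of MF and BM-DC. Rap2a, a small GTPase, was 13.4-fold lower, Mbnl2, a splicing regulator, 6.11-fold, Rcbtb2 5.55-fold and Nudt18 5.36-fold. Rap2a and Rcbtb2 were each detected on 6 of the 9 arrays and averaged 4.75 and 4.68 there, near the floor, so their folds have no exact size. Scara3 had the largest upward difference, at 8.92 and 4.21, with 0 of 7 MF and BM-DC arrays detecting it. Cdca2 was 4.46-fold higher, and Pou4f1, Nupl1 and Dgkh were also higher in all 4 differences. Just beyond Ipo5, Stk24 was 3.73-fold and Ubac2 3.31-fold lower without overlap, Gpr183 was 2.2-fold lower with overlap, and Dock9 and Gpr18 stood at 0.06 and -0.26. Just before Micu2, Ska3 was 2.74-fold higher, and Lats2, Sap18, Mrpl57 and Zdhhc20 lay between -0.18 and 0.56.

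ESdM differed from the cells labelled microglia in 9 of the 41 genes, 5 higher and 4 lower at a limma adjusted p below 0.05, where 6.35% and 5.85% of all genes were called higher and lower. Lpar6 was 7.59 to 7.82 (median 7.73) on ESdM arrays, against 6.47, 6.38 and 6.62 on microglia arrays. The groups did not overlap, and the rise was 1.23 ± 0.185 on the log2 scale (SE), 2.34-fold, with an adjusted p of 3.31e-05. Epsti1 was 4.3 to 4.77 on ESdM arrays, against 5.33, 5.51 and 5.52 on microglia arrays, a fall of 1.92-fold (adjusted p = 0.000244), with 1 of 6 ESdM arrays detecting it. Also higher were Bora (1.61-fold), Dnajc3 (1.62-fold), Vwa8 (1.48-fold) and Ipo5 (0.56 on the log2 scale), and also lower were Mycbp2 (1.66-fold), Micu2 (1.39-fold) and Bnip3l (1.35-fold). The largest of these 9 adjusted p values was that of Bnip3l, 0.0306.

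Since the arrays of these groups lay on the same 2 chips, each chip gives a comparison of its own. A model with a fixed term for the chip gave 9 calls. The first chip alone held 3 ESdM arrays and 1 microglia array, so only effect sizes are given for it. The second held 3 and 2 and gave 4 calls. The share of all genes called was not worked out for these fits, so their counts have no background beside them. With a minimum of 2-fold, 1 of the 41 genes was higher, where the share of all genes was 0.601%, and 0 were lower, where it was 1.47%. Lpar6 was 1.24 higher within the first chip and 1.23 within the second (limma adjusted p = 0.00722 in the second), Bora was 0.59 and 0.7 higher, and Mycbp2 was -0.85 and -0.71. Bora and Mycbp2 were not called within the second chip (limma adjusted p = 0.0836 and 0.0812). The 4 calls there were those of Lpar6, Vwa8, Epsti1 and Micu2. Epsti1 was -0.7 and -1.05 in the 2 chips, and its call was lost without background correction (-0.27, adjusted p = 0.166). Dnajc3 lost its call without microglia array 2 (0.42, adjusted p = 0.218). It was also lost when the background was left uncorrected (0.26, adjusted p = 0.149) and with the deposited processed values (0.29, adjusted p = 0.116). Bora without microglia array 2 was 0.56 (adjusted p = 0.063). Bnip3l lost its call when any 1 of the 3 microglia arrays was left out, and without ESdM 20 array 1 or ESdM 22 array 3 (-0.45 to -0.38). Mycbp2 lost it when its probes were averaged (-0.2). Median scaling left 4 higher and 2 lower, against 5 and 4, while over all genes it left 354 and 429, against 814 and 750.

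Between the lines, ESdM 22 and ESdM 20, 0 of the 41 genes were called in either direction by limma, where 0.0078% and 0.0156% of all genes were called higher and lower, and 1 had an unadjusted p below 0.05, as 4.11% of all genes did. Per array, the median of the 41 genes relative to the MF mean was -1.2 to -0.94 on microglia arrays, -0.94 to -0.89 for ESdM 20 and -1.06 to -1.01 for ESdM 22. It was -0.47 to -0.15 on BM-DC arrays, -0.1 to -0.01 in astrocytes, -0.85 to -0.45 in neurons and -0.05 to 0.06 in CD8 T cells. The MF arrays themselves ran from -0.02 to 0.03, near 0 by construction, because each value is taken relative to their own mean. They also took part in choosing the genes, so the order of the groups against MF is a description only. All BM-DC and neuron arrays lay below this narrow MF range, while astrocyte and CD8 T cell arrays overlapped with it.

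BM-DC and MF, which stood on the same side of the choice, differed in 24 of the 41 genes, with 5 higher and 19 lower in BM-DC, where 18.1% and 24.8% of all genes were called. The median difference was -0.18, against -0.03 for all genes. Ipo5 was 7.79, 7.65 and 7.74 on BM-DC arrays, against 10.5, 10.33, 9.96 and 10.12 on MF arrays, 5.65-fold lower (limma adjusted p = 9.14e-15). Ptk2b was 3.79-fold, Diaph3, a formin of actin filaments, 3.59-fold and Ndfip2 3.31-fold lower in BM-DC. Vwa8 was 3.14-fold, Kctd12 2.4-fold and Extl3 2.39-fold lower, and Dis3 at least 2.83-fold, as no BM-DC array detected it. Mycbp2 was 9.31, 9.14 and 9.38 on BM-DC arrays, against 6.61, 7.29, 6.62 and 6.62 on MF arrays. This was a 5.62-fold rise without overlap (adjusted p = 7.22e-12). Epsti1 was 2.65-fold, Gtf2f2 2.5-fold, Dnajc15 2.19-fold and Med4 0.55 log2 units higher. Elf1 was 0.18 lower with an adjusted p of 0.498, and Wbp4, Commd6, Esd and Lcp1 were not called either.

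Astrocytes and neurons, whose arrays took no part in choosing the genes and shared 1 chip, differed in 27 of the 41 genes, with 17 higher and 10 lower in astrocytes, where 28.4% and 27.3% of all genes were called. Lpar6 was 11.08, 10.62 and 10.54 on astrocyte arrays, against 6.44, 7.4 and 6.06 on neuron arrays. It did not overlap and was 17.4-fold higher (limma adjusted p = 4.46e-15). Dnajc3 was 7.84-fold, Ptk2b 5.98-fold and Dnajc15 4.89-fold higher, and neurons detected Ptk2b on 1 of 3 arrays. Itm2b was 13.85, 13.96 and 13.45 on astrocyte arrays, against 11.56, 11.41 and 11.76 on neuron arrays, 4.52-fold higher. Vwa8, a mitochondrial protein, was 4.18-fold, Elf1 3.73-fold and Esd 3.29-fold higher. Lcp1 was 6.54, 6.3 and 6.06 on astrocyte arrays and on neuron arrays was not detected, so that it was at least 3.27-fold higher.

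Lcp1 and Itm2b levels in astrocytes stand beside the macrophage markers on the same arrays, of which 3 of 4 were detected on all 3 astrocyte arrays with a summed level of 34.47 to 37, against 16.89 to 17.31 and 0 of 4 on neuron arrays. Their part in these differences was not tested. Lower in astrocytes was Mycbp2, among others. It was 5.92, 5.55 and 5.58 on astrocyte arrays, against 8.54, 8.27 and 8.34 on neuron arrays, 6.51-fold lower (adjusted p = 1.29e-12). Kctd12 was 3.69-fold, Uchl3, a ubiquitin hydrolase, 3.14-fold, Klf5 2.66-fold, Med4 2.48-fold, Elp3 2.44-fold, Tdrd3 2.2-fold and Dpysl2 1.92-fold lower. Lmo7, which no other group detected, was at least 1.97-fold lower in astrocytes than in neurons, where all 3 arrays detected it.

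The cells labelled microglia were compared with astrocytes, neurons and CD8 T cells, and ESdM likewise, but these 6 comparisons reuse the 9 arrays that chose the genes and are not independent of that choice. Against astrocytes, microglia had 7 of the 41 genes higher and 22 lower, where 29.6% and 29.5% of all genes were called, and ESdM 6 higher and 24 lower, where the shares were 31.2% and 31.1%. Against neurons, microglia had 9 higher and 20 lower (all genes 32.1% and 30%), and ESdM 10 higher and 19 lower (34.1% and 30.7%). Against CD8 T cells, microglia had 4 higher and 27 lower (31.5% and 26.4%), and ESdM 5 higher and 26 lower (34.2% and 28.3%). With a minimum of 2-fold, the counts were 1 higher and 17 lower for microglia against CD8 T cells (all genes 18% and 14.8%), 2 and 17 for ESdM against astrocytes (16.9% and 18.6%), and 1 and 19 for ESdM against CD8 T cells (18.2% and 14.8%). In each of the 6 the listed genes were called lower more often than all genes and higher less often. This lean was not particular to the listed genes. Of the 127 other tested genes of the stretch, 42 to 61 were called lower and 20 to 29 higher in these comparisons. Against neurons, 59 were lower and 27 higher for microglia, and 61 and 29 for ESdM.

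**Figure D5:**
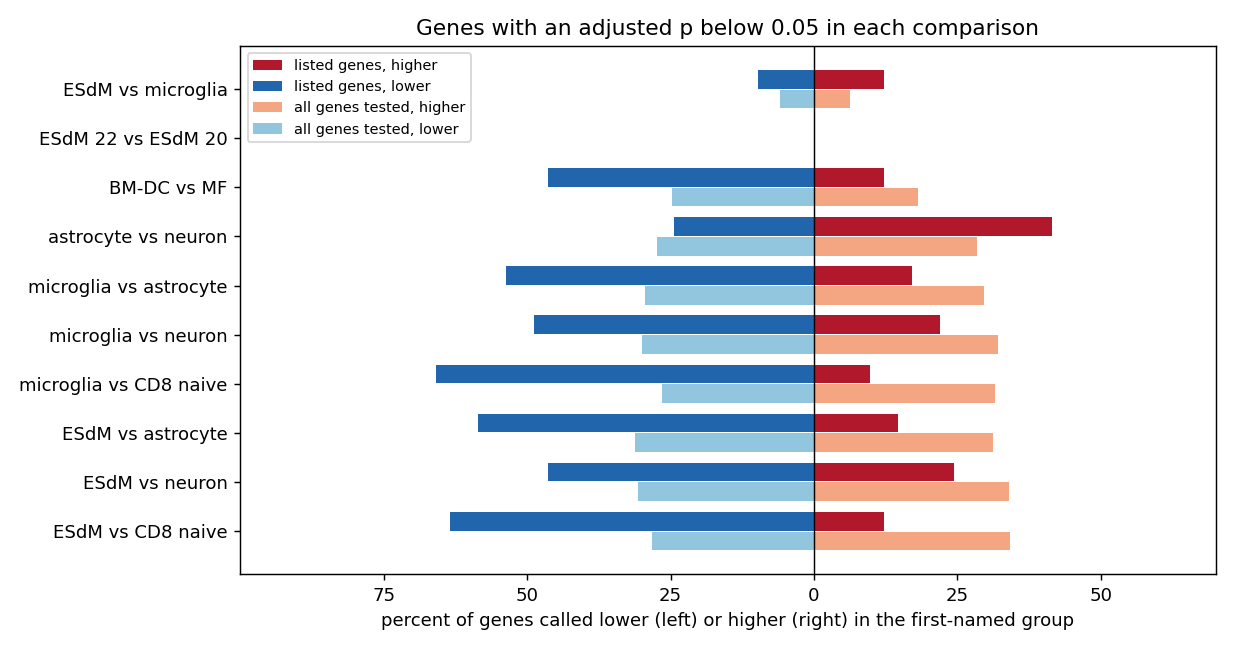
Bars give the percent of genes with a limma adjusted p below 0.05 that were lower (left) or higher (right) in the first-named group, dark for the 41 listed genes and light for all 12814 genes. In the 6 comparisons of microglia or ESdM with astrocytes, neurons or CD8 T cells the dark bars reach further to the left than the light ones, 22 of 41 against 29.5% for microglia and astrocytes, and astrocytes against neurons lean the other way, with 17 higher and 10 lower.

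The genes that parted these groups most were not always those that set them apart from MF and BM-DC. Against astrocytes, Lpar6 was 19.1-fold lower on microglia arrays (limma adjusted p = 2.38e-15), Dnajc3 16-fold, Ndfip2 14-fold and Extl3, a starter enzyme of heparan sulfate chains, 12.4-fold. In ESdM, Ndfip2 was 12.5-fold, Extl3 11.1-fold and Dnajc3 9.89-fold lower than in astrocytes, and Tsc22d1 at least 7.93-fold, as no ESdM array detected it. Extl3 was 8.32, 8.47 and 8.35 on microglia arrays and 8.41 to 8.89 on ESdM arrays, against 12.08, 12.12 and 11.82 on astrocyte arrays. Lcp1 was higher than in astrocytes on microglia arrays by 4.31-fold and on ESdM arrays by 3.38-fold. Bora was 2.35-fold and 3.79-fold higher in the same comparisons, Mycbp2 2.2-fold and Epsti1 1.91-fold higher on microglia arrays, and Gtf2f2 1.82-fold and Med4 1.55-fold higher on ESdM arrays.

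Against neurons, Lcp1 was at least 14.1-fold higher on microglia arrays and at least 11-fold higher on ESdM arrays, because no neuron array detected it. Dnajc15 was 9.25, 9.31 and 9.3 on microglia arrays and 8.96 to 9.29 on ESdM arrays, against 6.14, 6.74 and 6.19 on neuron arrays, 7.61-fold and 6.74-fold higher. Ptk2b was 4.5-fold and 5.08-fold higher, Esd 4.08-fold higher on microglia arrays and Bora 4.29-fold higher on ESdM arrays, with 1 of 3 neuron arrays detecting Ptk2b and Bora. Dpysl2 was 9.68, 9.41 and 9.69 on microglia arrays and 9.27 to 9.53 on ESdM arrays, against 13.32, 13.46 and 13.2 on neuron arrays. It was 13.3-fold and 15.5-fold lower. Ndfip2 was 19.7-fold and 17.6-fold, and Kctd12 12.4-fold and 9.67-fold lower. Only 1 of 3 microglia arrays detected Kctd12, so its fall there has no exact size. Klf5 was at least 11-fold lower on microglia and at least 11.1-fold lower on ESdM arrays, where no array detected it.

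Against naive CD8 T cells the interferon-induced Epsti1 and the ETS factor Elf1 had the largest falls. Epsti1 was 5.33, 5.51 and 5.52 on microglia arrays and 4.3 to 4.77 on ESdM arrays, against 10.25, 10.56, 9.95, 10.22 and 9.7 on CD8 arrays, 25.7-fold lower on microglia arrays (limma adjusted p = 2.92e-18). On ESdM arrays, of which 1 of 6 detected it, Epsti1 was at the floor, so its fall there (adjusted p = 7.37e-22) has no exact size. Elf1 was 6.81, 6.76 and 6.68 on microglia arrays and 6.55 to 7.23 on ESdM arrays, against 11.14, 10.82, 11.28, 10.68 and 11.15 on CD8 arrays. This amounts to 19.2-fold and 17.5-fold lower without overlap. Mycbp2 was 6.42-fold and 10.6-fold lower, and Lpar6 was 9.53-fold lower on microglia arrays. Tpt1 was 4.42 on ESdM arrays, of which 1 of 6 detected it, against 7.06 on CD8 arrays. Mipep was 2.73-fold and 2.23-fold higher, Esd 1.86-fold and 1.82-fold, and Diaph3 1.61-fold and 1.55-fold. Mtrf1 was 1.33-fold higher on microglia arrays and Vwa8 1.79-fold higher on ESdM arrays.

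Genes on other chromosomes whose proteins are known to work with those of the listed genes had RNA levels on microglia and ESdM arrays that lay more often above those of MF and BM-DC arrays than below. Of 64 such partner genes 54 were tested, and the values are a description, since they use the same arrays. Their median difference between microglia and ESdM on one side and MF and BM-DC on the other was 0.59, beside 0.01 over all genes, with 23 (42.6%) higher and 5 (9.26%) lower without overlap, where the shares of all genes were 16.6% and 12.7%. Aurka and Plk1, the kinases that Bora activates, were higher by 3.23 and 2.56 on the log2 scale. Of the exosome subunits that work with Dis3, Exosc2 was 8.45-fold higher, and 7 of the 8 tested were higher without overlap, as 16.6% of all genes were. Of the partners of Rb1, E2f1, an activator of S-phase genes, was 2.09 higher, and Rbl1, a relative of Rb1, was 1.41 higher with overlapping arrays. Commd1, Commd3 and Commd8 were lower by -0.89, -1.09 and -1.19, Commd5 was 1.24 higher, and 4 other COMMD genes overlapped. Hspa5, a chaperone that works with Dnajc3, was 2.67-fold lower.

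In ESdM against microglia 3 of the 54 partner genes were called higher and 0 lower by limma, beside 6.35% and 5.85% of all genes. Tubgcp4, of the gamma-tubulin complex that Mzt1 joins, was 2.04-fold higher (adjusted p = 8.15e-05). Exosc10 was 0.49 higher and not called, and Rbl1 and Rbl2 were 0.29 and 0.28 lower and not called.

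Of the 41 genes, 22 had another probe past the filter, 29 such probes in all. The difference of microglia and ESdM from MF and BM-DC had the sign of the tested probe on 26 of them. The 3 exceptions were probes for Micu2, Dpysl2 and Tdrd3. The second probe of Rb1 gave -1.33 where the tested probe gave -2.03, that of Itm2b -3.45 where the tested one gave -2.05, and that of Micu2 0.2 where the tested one gave -0.71. A shared sign did not mean a like size. Kctd12 kept -3.75 of -4.53 and Epsti1 -2.13 of -2.82. Ndfip2 gave -0.38 where the tested probe gave -2.85, Esd -0.97 to -0.55 against -1.97, and Mycbp2 -0.12 and -0.07 against -1.7. The other probes of these last genes, Ndfip2, Esd and Mycbp2, had low mean levels, 4.53 to 5.85.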

How the data were processed

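Expression was measured on 27 Illumina mouse bead arrays in 8 groups. The deposited array tables give a mean bead intensity per probe on a linear scale, not normalized, with a detection p-value that moves in steps of 1 in 936, and the authors also deposited a matrix of processed intensity values. Scanner software and genome build are not given in the sources used here. From the raw intensities, neqc (limma 3.58.1, R 4.3.3) corrected the background, added an offset of 16, quantile-normalized and took log2. The filter asked for 3 or more arrays with a detection p under 0.05, which 25001 of 45281 probes met. Of all probes 34885 had 1 gene symbol, 18 several and 10378 none. The probe with the highest mean stood for each gene, which left 12814 genes.

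One limma model over all 8 groups, with 19 residual degrees of freedom, gave differences and p-values, adjusted over all genes (Benjamini-Hochberg), and a gene was called below 0.05 with no minimum fold. Symbols were updated through the RefSeq table, and Diap3 in the list is Diaph3. Whether replicates are separate cultures or animals is not given in the labels, and the p-values therefore reflect only how much these samples vary, and that variation may be technical. No arrays were identical. Where no array of a group detected a gene, folds are lower bounds against the dimmest detected signal. The number of arrays limits the precision. Replicate numbers did not pair the samples, since 6 of 85 pairs correlated above 0.1.

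The listed genes, the 64 partner genes (60 named on the array) and the markers were chosen with earlier results of these data known. Named in each tested comparison were up to 4 called genes with the largest rise and 4 with the largest fall, and genes with well known roles, and others were added after their values were seen. For the contrast that chose the list, genes were ranked by the size of the smallest of the 4 differences in their common direction. The model was tested on simulated data. Alternatives covered background correction, scaling, filters, probe choice, a minimum fold, chip and replicate blocks, the deposited processed values and leaving out each array.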

Additional observations from a re-analysis of the deposited data

Results flagged for a closer look

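In 76 groups of 4 to 10 arrays, 8 single arrays lay far from the rest of their group, and chance gives about 1 in 20. On MF arrays, Mipep was lowest on array 3 (7.89, next 8.03), Mycbp2 was highest on array 2 (7.29, next 6.62) and Dnajc3 was highest on array 1 (8.08, next 7.64). On CD8 T cell array 2, Rb1 was highest (10.02, next 9.4), while Lcp1 (7.99, next 9.49) and Tsc22d1 (4.51, next 5.79) were lowest. Med4 was lowest on CD8 array 1 (7.77, next 8.03). Nufip1 was highest on CD8 array 3 (5.07, next 4.32), the only CD8 array that detected it.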

How the results depend on the processing

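The 72 called differences named by rank, up to 4 in each direction of a tested comparison, were recomputed as 1168 alternative values, of which 0 changed sign and 31 lost the call. Uggt2, which changed sign under median scaling, is not among them. In ESdM against microglia 9 listed genes were called. The first shared chip held 1 microglia array and gives effect sizes only. The count was 4 within the second shared chip, where the share of all genes was not worked out. It was 1 with a minimum of 2-fold, where 0.601% of all genes were higher and 1.47% lower. With that minimum, the counts were 18 for microglia against CD8 T cells (31 without it), 19 for ESdM against astrocytes (30) and 20 for ESdM against CD8 T cells (31). The shares of all genes higher and lower were 18% and 14.8%, 16.9% and 18.6%, and 18.2% and 14.8%, in the same order. The median of the listed genes in microglia and ESdM against MF and BM-DC was -0.73, and it was -0.38 without background correction, -0.42 on the deposited processed values, -0.87 with detection on at least 9 arrays (37 genes tested) and -0.52 over all probes. Under median scaling it was -0.77 while that of all genes was 0.2. ESdM against microglia then gave 4 higher and 2 lower, so that 66.7% of calls were higher, against 55.6%. Over all genes the share of calls that were higher was 45.2%, against 52%. With so few calls among the listed genes, nothing is read from these shares.

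Leaving out 1 array at a time gave 6 to 9 called genes in ESdM against microglia, 0 to 0 in ESdM 22 against ESdM 20, 21 to 25 in BM-DC against MF, 24 to 27 in astrocytes against neurons, 28 to 30, 29 to 30 and 30 to 32 in microglia against astrocytes, neurons and CD8 T cells, and 28 to 30, 29 to 30 and 31 to 33 in ESdM against the same groups. Without microglia array 2, ESdM against microglia had 3 higher in place of 5. The median ranged from -0.77 to -0.68. With the replicate block the counts were 9, 0, 23, 27, 29, 29, 29, 31, 29 and 30 in the same order, the median was -0.73 and no count moved by 1.5 times. The share of all genes called was not worked out for the fits without 1 array or with the replicate block. Their counts therefore show only how far the calls among the listed genes moved. Genes near the floor of 4.3 have no order. The causes of these shifts were not tested.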
